A study of Homo sapiens with 6 samples.

Results

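Claudins and tight junction proteins were followed through cells of one breast cancer line that did or did not bind the fatty acid carrier FABP4. The set was taken by gene name and held 9 of the 58051 genes in the deposited table: the claudins CLDN1, CLDN3, CLDN4, CLDN7 and CLDN12, the membrane proteins OCLN and F11R, and the cytoplasmic scaffolds TJP1 and TJP3. The cells were MDA-MB-231, an established human triple-negative breast cancer line with mesenchymal-like form, labelled wild type. All cells of both groups were stained with fluorescein-tagged recombinant human FABP4 and sorted by flow cytometry, and the 2 groups were the FABP4 binding and the FABP4 non-binding subpopulation, with 3 libraries each. The labels give no time or dose of the staining and no gate. Nor do they say whether replicate libraries stem from independent cultures, and the p-values therefore describe library-to-library spread that may be technical.

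Tight junctions seal the space between neighbouring epithelial cells. Claudins are small proteins with 4 membrane passes that form the strands and set which ions and solutes pass, occludin (OCLN) and JAM-A (F11R) are further membrane proteins of the strand region, and the zonula occludens scaffolds (TJP1, TJP3) tie their cytoplasmic tails to actin. In breast, luminal epithelium makes CLDN3, CLDN4 and CLDN7. Tumours and lines with little of these claudins, among them MDA-MB-231, are known as claudin-low. CLDN1, CLDN4, OCLN and TJP1 are also made in epidermis. Ribosomal RNA was removed before random priming, and the TPM values deposited are corrected for transcript length, so levels can be compared between genes. Every library summed to 1000000 TPM, and the sequencing depth is unknown. The labelled cell type was checked against markers. The 9 markers used for the line were all measured, but markers of epidermal keratinocytes, which the label does not account for, summed to 2469 to 4368 TPM in the binding and 5265 to 6936 TPM in the non-binding libraries, and CLDN4 averaged over 47 TPM in both groups. The libraries thus hold transcripts that go against their label, and whether they hold only MDA-MB-231 cells was not tested.

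The proteins sit in different gene structures, and the start regions of the members that the results turn on are shown here for orientation. CLDN3 and CLDN4 are neighbours on chromosome 7 (73768997 to 73770270 on the minus strand and 73799542 to 73832693 on the plus strand, hg38, GENCODE release 29), with 29.3 kb and no annotated gene between them. CLDN12 lies elsewhere on chromosome 7 (90383721 to 90513402, plus strand), CLDN7 on chromosome 17 (7259903 to 7263983, minus strand), OCLN on chromosome 5 (69492292 to 69558104, plus strand) and F11R on chromosome 1 (160995211 to 161021348, minus strand). CLDN1 lies on chromosome 3 (190305701 to 190322475, minus strand), with its annotated start only 65 bases from CLDN16, TJP1 on chromosome 15 (29699367 to 29968865, minus strand) and TJP3 on chromosome 19 (3708109 to 3750813, plus strand). RefSeq (GRCh38.p14) gave the 250 bases before the transcription start for 8 of the 9 members, F11R being the exception. Both strands were searched for the GC box, the core of the SP1 binding site, spelled GGGCGG. They were also searched for the E-box, the core site of the SNAI and ZEB repressors of epithelial genes, spelled CACCTG. No E-box overlapped a GC box. A GC box stood in 6 of 8 member windows and in 42.6% of 35116 windows of all genes, and an E-box in 2 of 8 and in 17.5%. Member windows held from 54.4% (CLDN12) to 71.6% (CLDN3) G and C letters, against a median of 58.0% over all windows. The motif counts were not adjusted for this. The CLDN3 window is shown because CLDN3 had the largest difference of the set, and it held 4 GC boxes, in capitals on whichever strand they lie. The CLDN12 and CLDN7 stretches, the former limited to the part outside annotated exons, are shown beside it and held neither motif, so they have no capitals. Both lie within the gene spans that GENCODE release 29 gives, so they are upstream only of the RefSeq start. The E-boxes before OCLN (33 bases before the start) and TJP1 (88 bases before it) are shown with 12 bases on each side. The OCLN window lies wholly in exons that GENCODE release 29 annotates, so its E-box is upstream only of the RefSeq start. The same holds for the windows of CLDN4 and TJP3, while the RefSeq start of TJP1 lies outside the gene as GENCODE release 29 gives it. These matches are letters in a window, and binding was not measured.
CLDN3, chr7:73770271-73770520, minus strand: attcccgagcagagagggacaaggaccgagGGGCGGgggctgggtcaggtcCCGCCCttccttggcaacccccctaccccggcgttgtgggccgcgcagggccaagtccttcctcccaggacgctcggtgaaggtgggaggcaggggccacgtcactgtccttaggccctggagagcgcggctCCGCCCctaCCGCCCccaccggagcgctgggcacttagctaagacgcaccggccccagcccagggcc
CLDN12, chr7:90403211-90403352, plus strand: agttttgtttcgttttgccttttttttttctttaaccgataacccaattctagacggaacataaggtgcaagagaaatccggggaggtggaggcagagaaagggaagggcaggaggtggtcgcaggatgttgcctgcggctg
CLDN7, chr17:7263214-7263463, minus strand: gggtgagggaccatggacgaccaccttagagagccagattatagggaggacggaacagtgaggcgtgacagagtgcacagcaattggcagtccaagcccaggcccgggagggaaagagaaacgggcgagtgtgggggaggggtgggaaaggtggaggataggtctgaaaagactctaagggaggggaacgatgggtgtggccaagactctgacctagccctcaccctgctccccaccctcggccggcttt
OCLN E-box, chr5:69492502-69492531, plus strand: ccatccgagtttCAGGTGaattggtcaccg
TJP1 E-box, chr15:29969120-29969149, minus strand: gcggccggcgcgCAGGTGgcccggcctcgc

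All 9 members were detected at 1 TPM or more in all 6 libraries, so none entered the test through 1 group alone. CLDN3 and CLDN12 were higher in the binding cells, and the other 7 members did not pass the test. Group means lay above those of the non-binding cells for 8 members, from 17.3% above for CLDN1 to 135% above for CLDN3, and within 0.3% for CLDN4. In 6 members (CLDN3, CLDN7, CLDN12, OCLN, F11R and TJP1) each binding library exceeded every non-binding library. The same was true of 38.6% of all 15574 tested genes, and groups did not overlap in either direction in 52.2%. By limma on log2(TPM + 1) with Benjamini-Hochberg adjustment over all tested genes at 0.05, 2 of 9 members were called higher and none lower. Among all tested genes 19.6% were called higher and 7.12% lower, so the share of members called higher, 22.2%, lay near the background. The median log2 change of the members was 0.59, against 0.36 over all tested genes. Both calls were lost when libraries were set to the same median of log2(TPM + 1), called the common median here (0 of 9, against 6.18% of all genes higher and 12.1% lower) and with quantile normalization (0 of 9, against 7.69% and 8.0%).

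**Figure D1:**
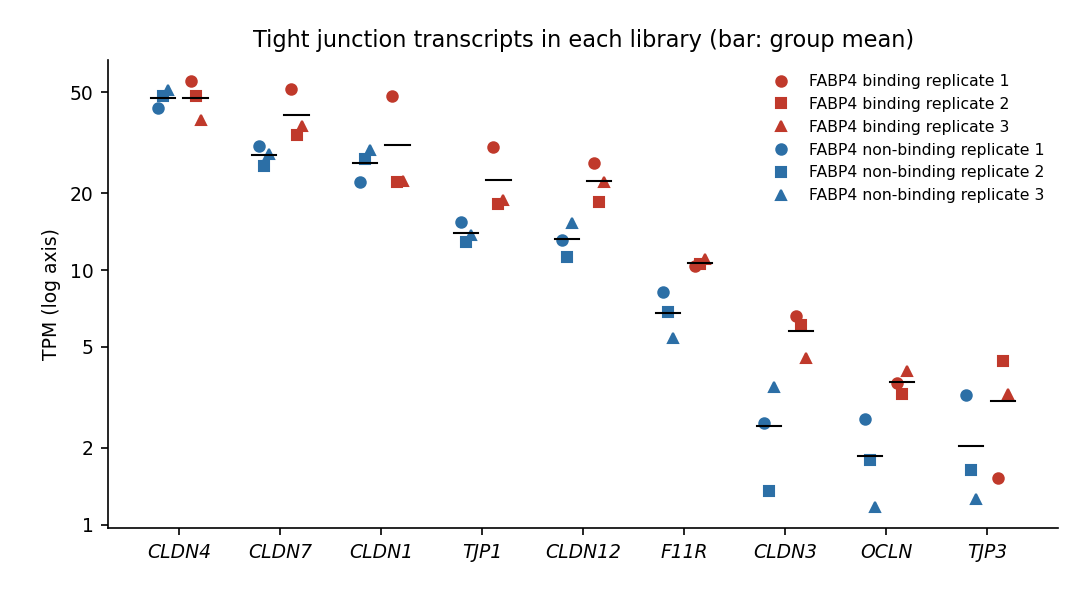
TPM of the 9 members in each library, on a log axis and ordered by mean level, with binding libraries in red, non-binding libraries in blue and a bar at each group mean. Red points lie above all blue points for CLDN7, TJP1, CLDN12, F11R, CLDN3 and OCLN, and both colours mix for CLDN4, CLDN1 and TJP3.

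The levels spanned a wide range. In the non-binding cells CLDN4 was the most abundant member at 47.5 ± 3.73 TPM and OCLN the least at 1.85 ± 0.715 TPM (SD, n = 3). The order after CLDN4 was CLDN7, CLDN1, TJP1, CLDN12, F11R, CLDN3, TJP3 and OCLN. The ranges of neighbours overlapped between CLDN7 and CLDN1, between TJP1 and CLDN12, between CLDN3 and TJP3 and between TJP3 and OCLN. In the binding cells the order differed only in that OCLN stood above TJP3, and the ranges of these 2 overlapped, as did those of neighbours from CLDN4 down to CLDN12. The 9 members together took 137 to 150 TPM in the non-binding libraries and 162 to 234 TPM in the binding libraries, with the highest sum in binding replicate 1. That library held the highest value of 6 members (CLDN1, CLDN3, CLDN4, CLDN7, CLDN12 and TJP1). Its median log2(TPM + 1) over the tested genes was also the highest, at 3.76. Medians were 3.53 and 3.56 in binding replicates 2 and 3, and 3.26 to 3.32 in the non-binding libraries. The share of all genes that were highest in binding replicate 1 was not computed. Over the tested genes, binding replicate 1 also had the largest mean difference from the other libraries of its group. The root mean square was 0.677 in log2(TPM + 1), against 0.602 and 0.595 for the other binding libraries. Within the non-binding group the values were not far below, at 0.651, 0.670 and 0.636 for replicates 1 to 3.

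Among the claudins, CLDN3 had the largest difference. CLDN3, a barrier-forming claudin and the receptor of a clostridial toxin, measured 6.62, 6.08 and 4.51 TPM in binding replicates 1 to 3 and 2.51, 1.36 and 3.46 TPM in non-binding replicates 1 to 3. The groups did not overlap, with binding replicate 3 and non-binding replicate 3 closest to each other. The mean was 2.35 times higher in the binding cells, a log2 change of 1.00 (SE 0.30, 95% interval 0.31 to 1.69; limma, Benjamini-Hochberg adjusted p = 0.0425), or 0.65 relative to the median of all genes. The CLDN3 change was 0.69 under the common median (adjusted p = 0.12) and 0.74 under quantile normalization (adjusted p = 0.108). The call was lost in each of the 6 fits that left out a library (log2 change 0.75 to 1.22, limma adjusted p = 0.0576 to 0.105). Calls over all genes also fell in those fits, from 4156 with all libraries to between 186 and 2941.

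CLDN12 was the other member past the threshold. It is an atypical claudin whose tail lacks the usual PDZ-binding end, through which claudins attach to the zonula occludens scaffolds. It measured 26.4, 18.6 and 22.2 TPM in the binding and 13.2, 11.3 and 15.3 TPM in the non-binding libraries, in replicate order. Every binding library lay above every non-binding library. The mean was 1.69 times higher, a log2 change of 0.71 (SE 0.19, interval 0.26 to 1.16; limma, Benjamini-Hochberg adjusted p = 0.0347). Under either rescaling the change was 0.39 (adjusted p = 0.116 for the common median and 0.122 for quantile normalization). The call held without binding replicate 2 (adjusted p = 0.0409) and was lost without any other library (limma adjusted p up to 0.0982). Annotated exons of CLDN12 overlap exons of GTPBP10 (347 bases) and CDK14 (201 bases) on the same strand, and 12.6% of its distinct 50-base stretches also occur in transcripts of other genes, so some of its reads could have been assigned otherwise.

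The group means of CLDN4 were nearly equal. This claudin, which like CLDN3 is a barrier-forming member of luminal epithelium, measured 55.2, 48.1 and 38.8 TPM in the binding and 43.5, 48.1 and 50.9 TPM in the non-binding libraries. The groups overlapped throughout, and the log2 change was -0.02 (interval -0.40 to 0.37; limma, Benjamini-Hochberg adjusted p = 0.946). Relative to the median of all genes the CLDN4 change was -0.37. CLDN3 and CLDN4 share only 22 of the 1225 distinct 50-base stretches of the CLDN3 transcript.

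CLDN7, which also takes part in adhesion outside tight junctions, measured 51.6, 33.9 and 36.9 TPM in the binding and 30.8, 25.7 and 28.7 TPM in the non-binding libraries. The groups did not overlap, and binding replicate 1 stood well above the rest. Its log2 change of 0.49 (interval 0.06 to 0.92) missed the threshold (limma, Benjamini-Hochberg adjusted p = 0.0819) and was 0.17 with the common median. Of its distinct 50-base stretches, 8.25% also occur in transcripts of the same-strand gene AC003688.1, which averaged 0 TPM in both groups. Its exons overlap those of the opposite-strand gene ELP5 by 38 bases. ELP5 averaged 44.3 TPM in the binding and 25.2 TPM in the non-binding group. CLDN1, the main barrier claudin of epidermis, measured 48.4, 22.1 and 22.5 TPM in the binding and 22.3, 27.4 and 29.6 TPM in the non-binding libraries. Its higher mean in the binding cells rested on binding replicate 1. The CLDN1 log2 change was 0.14 (interval -0.55 to 0.82; limma, Benjamini-Hochberg adjusted p = 0.742), turned to -0.23 without that library, and to -0.18 under the common median and -0.16 under quantile normalization.

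Of the other membrane proteins, F11R had the tightest binding group. F11R, an immunoglobulin-like adhesion protein that recruits polarity proteins to young junctions, measured 10.4, 10.6 and 11.01 TPM in the binding and 8.20, 6.82 and 5.40 TPM in the non-binding libraries. The groups were apart, but the log2 change of 0.59 (interval 0.13 to 1.06) missed the threshold (limma, Benjamini-Hochberg adjusted p = 0.0587). Of its distinct 50-base stretches, 35.9% also occur in transcripts of other genes, mostly those of the same-strand gene AL591806.3, at a mean of 0.0782 TPM in the binding group against 0.265 TPM. OCLN, a regulator of strand assembly, measured 3.60, 3.26 and 4.00 TPM in the binding and 2.60, 1.79 and 1.18 TPM in the non-binding libraries. The groups were apart here too, with means 1.95 times different, and the log2 change of 0.72 (interval 0.08 to 1.36) missed the threshold (limma, Benjamini-Hochberg adjusted p = 0.0832). Some OCLN reads may be shared with its pseudogene OCLNP1, which holds 530 of its 6805 distinct 50-base stretches.

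The scaffold TJP1 (ZO-1) measured 30.6, 18.2 and 18.8 TPM in the binding and 15.4, 12.9 and 13.8 TPM in the non-binding libraries. No non-binding library reached a binding one, with binding replicate 1 far above the other two. The TJP1 log2 change was 0.61 (interval 0.10 to 1.13; limma, Benjamini-Hochberg adjusted p = 0.0711), and 0.38 without binding replicate 1. TJP3 (ZO-3), a related scaffold found mainly in epithelia, measured 1.53, 4.38 and 3.27 TPM in the binding and 3.22, 1.64 and 1.26 TPM in the non-binding libraries. Those groups overlapped, and the log2 change of 0.40 (interval -0.47 to 1.28) missed the threshold (limma, Benjamini-Hochberg adjusted p = 0.43). Unlike for most members, binding replicate 1 was the lowest of its group for TJP3.

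**Figure D2:**
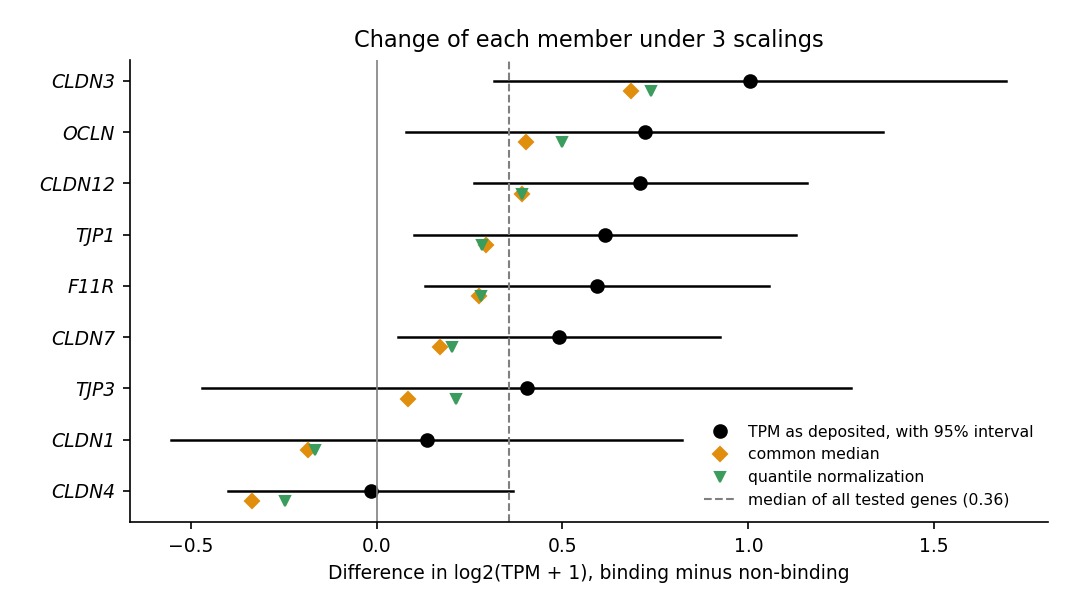
Difference in log2(TPM + 1), binding minus non-binding, for each member with its 95% interval from limma (black), and after a common median (orange) or quantile normalization (green). The dashed line is the median of all tested genes (0.36). Both alternatives move all members to the left, and CLDN1 from 0.14 to below 0.

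Because a scaling of the library moves all genes alike, members were also set against CLDN4, the most abundant of them, within each library. The CLDN3 to CLDN4 ratio was 0.120, 0.126 and 0.116 in binding replicates 1 to 3 and 0.0577, 0.0282 and 0.0681 in non-binding replicates 1 to 3. The 3 binding values were close together, and each exceeded every non-binding value. Ratios to CLDN4 were also apart for CLDN12 (0.478 ± 0.0933 against 0.279 ± 0.0390), TJP1 (0.473 ± 0.0882 against 0.298 ± 0.0488) and OCLN (0.0787 ± 0.0212 against 0.0400 ± 0.0185; SD, n = 3 each). For the other 4 members (CLDN1, CLDN7, F11R and TJP3) the ratios overlapped. Of the summed TPM of the 5 claudins, CLDN4 took 29.3% to 37.4% in the binding and 38.8% to 42.3% in the non-binding libraries, and CLDN3 took 3.52% to 4.72% and 1.19% to 2.71%. CLDN4 as the reference was chosen after its values were seen, so these ratios are a description and were given no test. The share of all tested genes whose ratios to CLDN4 are apart was not computed. Relative to the median of all genes the CLDN4 change was -0.37, so a gene at that median also has a higher ratio in the binding cells.

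**Figure D3:**
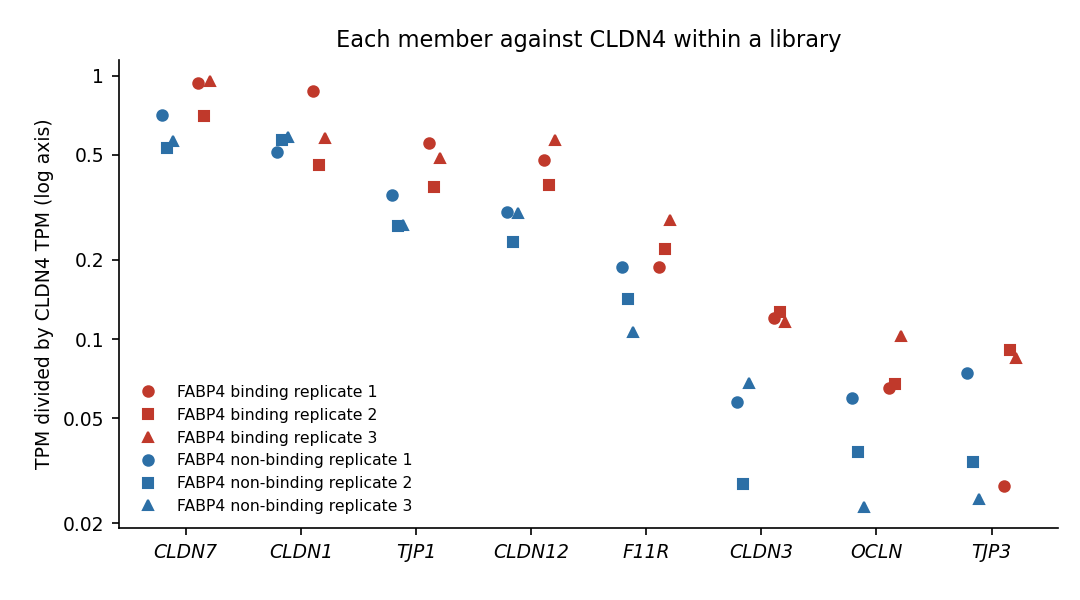
TPM of each member divided by the TPM of CLDN4 in the same library, on a log axis. For CLDN3 the binding libraries lie between 0.116 and 0.126 and the non-binding libraries between 0.0282 and 0.0681, while for CLDN7, CLDN1, F11R and TJP3 the groups overlap.

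Around the members, 60 other tight junction genes were followed in 3 lists. Of 39 tested, 6 were higher in the binding cells (15.4%, against 19.6% of all tested genes), none was lower and 33 did not pass (limma, Benjamini-Hochberg). Their median log2 change was 0.25, below that of all genes. The other claudins were scarce: of 19, 14 failed the filter (1 TPM in 3 libraries or more), 6 of them listed at 0 in all libraries, and none of the 5 tested passed. The most abundant were CLDN23, at 14.9, 6.32 and 7.69 TPM in binding and 3.68, 4.38 and 6.10 TPM in non-binding libraries, and CLDN15, at 6.06 ± 0.861 against 6.30 ± 1.77 TPM (SD, n = 3 each). The CLDN23 groups did not overlap, but the difference missed the threshold (limma, Benjamini-Hochberg adjusted p = 0.0845). Of the 39, 2 were higher under the common median and 1 under quantile normalization, against 6.18% and 7.69% of all tested genes. None was higher when non-binding replicate 2 or non-binding replicate 3 was left out. Over all genes, 328 of 15128 tested were higher without non-binding replicate 2 and 150 of 15081 without non-binding replicate 3.

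Of 7 tested membrane proteins outside the claudins, only LSR was higher (14.3%, against 19.6% of all tested genes). LSR, a lipoprotein receptor that also marks the corners where 3 cells meet, measured 94.6, 78.9 and 64.3 TPM in the binding and 52.1, 44.2 and 48.4 TPM in the non-binding libraries, with no overlap. Its log2 change was 0.69 (SE 0.17; limma, Benjamini-Hochberg adjusted p = 0.027), and 0.37 with the common median, where it did not pass (adjusted p = 0.0941). The call was also lost with quantile normalization (adjusted p = 0.0503), without any single library of the non-binding group or without binding replicate 2.

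Of 27 tested plaque and polarity proteins, 5 were higher (18.5%, against 19.6% of all tested genes) and none lower (against 7.12%). AMOTL1, an angiomotin that binds junction scaffolds and the growth regulator YAP, measured 13.4, 12.2 and 12.4 TPM in the binding and 6.53, 6.46 and 7.04 TPM in the non-binding libraries, a log2 change of 0.83 (SE 0.17; limma, Benjamini-Hochberg adjusted p = 0.0189). LLGL1, a basolateral polarity protein, measured 32.2, 24.9 and 24.3 against 16.01, 14.1 and 14.6 TPM, a log2 change of 0.81 (SE 0.17; limma, Benjamini-Hochberg adjusted p = 0.0199). The groups were far apart for both, and both calls held with the common median. They were lost without non-binding replicate 2 or non-binding replicate 3, and that of AMOTL1 with quantile normalization. SCRIB, the partner of LLGL1 in basolateral polarity, changed by 0.56, RAB13, a small GTPase of junction traffic, by 0.54, and PRKCI, the atypical kinase of the apical PAR complex, by 0.63 on the log2 scale (limma, Benjamini-Hochberg adjusted p = 0.0353, 0.0363 and 0.0459). None of these 3 calls held with the common median, with quantile normalization or without any 1 of the non-binding libraries. SCRIB and RAB13 were also lost without binding replicate 2 or binding replicate 3, and PRKCI without binding replicate 1 or binding replicate 3.

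Of 13 tested adherens junction genes, 2 were higher (15.4%, against 19.6% of all tested genes), 3 were lower (23.1%, against 7.12%) and 8 did not pass by limma. Under the common median 1 was higher and 4 were lower, against 6.18% and 12.1% of all tested genes. Without non-binding replicate 3 none passed, and over all genes only 186 of 15081 tested did. NECTIN2, an immunoglobulin-like adhesion protein, measured 78.7, 61.7 and 72.8 TPM in the binding and 37.7, 37.8 and 31.8 TPM in the non-binding libraries, a log2 change of 0.97 (SE 0.15; limma, Benjamini-Hochberg adjusted p = 0.0128). NECTIN4, of the same family, went the other way, at 7.37, 9.87 and 9.20 against 21.5, 19.5 and 13.6 TPM, a log2 change of -0.95 (SE 0.22; limma, Benjamini-Hochberg adjusted p = 0.0235). The NECTIN2 call was lost only without non-binding replicate 3 and that of NECTIN4 without any 1 of the non-binding libraries and without binding replicate 1 and non-binding replicate 2 together. The actin linker CTNNA1 was higher, by 0.60, and plakoglobin (JUP) and the epithelial cadherin CDH1 lower, by -0.46 and -0.77 on the log2 scale (limma, Benjamini-Hochberg adjusted p = 0.0281, 0.0405 and 0.0387). Calls of these 3 genes were lost without any 1 of the non-binding libraries. That of CTNNA1 was also lost without binding replicate 3 and with the common median, that of JUP without binding replicate 1 or binding replicate 3, under quantile normalization and with TPM rescaled over nuclear genes, and that of CDH1 without any 1 of the 6 libraries.

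Among 16 tested transcription regulators of epithelial and mesenchymal state, only GRHL3 was lower (6.25%, against 7.12% of all tested genes). None was higher (against 19.6%). GRHL3, a grainyhead-like activator of epidermal barrier genes, measured 3.904, 4.69 and 5.26 TPM in the binding and 9.74, 9.21 and 9.63 TPM in the non-binding libraries, with a wide gap between the groups. Its log2 change was -0.91 (SE 0.19; limma, Benjamini-Hochberg adjusted p = 0.0202). Leaving out any 1 non-binding library ended that call. SNAI1, a repressor of claudin and occludin genes, measured 13.2, 5.65 and 5.46 against 6.64, 3.59 and 3.14 TPM and missed the threshold (limma, Benjamini-Hochberg adjusted p = 0.184). ZEB1 and ZEB2, repressors of the same kind, also missed the threshold (adjusted p = 0.106 and 0.0971 by limma with Benjamini-Hochberg). The mean of ZEB1 was 9.19 TPM in the binding group against 5.77 TPM, and that of ZEB2 was 72.6 against 115 TPM. Values of SNAI1, ZEB1 and ZEB2 were chosen for print after they were seen.

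**Figure D4:**
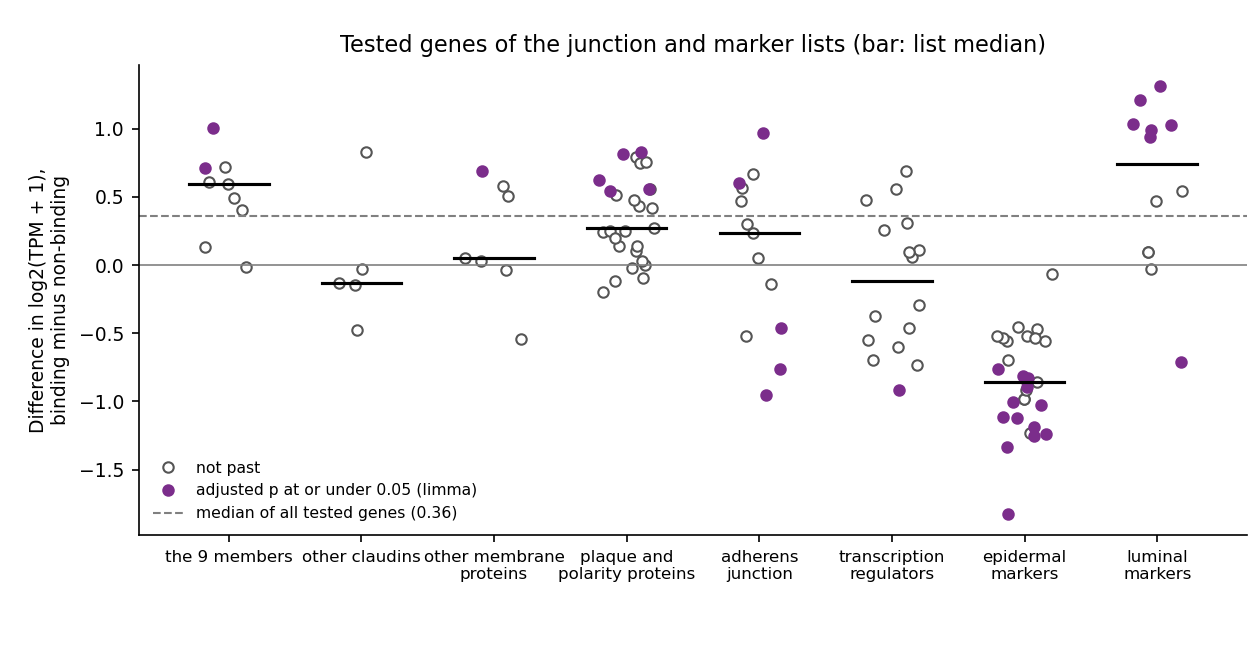
Difference in log2(TPM + 1), binding minus non-binding, of every tested gene of the members, of 5 junction and regulator lists and of 2 marker lists. Filled points passed an adjusted p of 0.05 by limma, bars are list medians and the dashed line is the median of all tested genes (0.36). Filled points of the tight junction lists all lie above 0, those of the adherens junction on both sides, and those of the epidermal markers below 0.

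Markers of other cell types moved with the groups and are given beside the junction genes. Epidermal keratinocyte markers, genes of skin, were abundant: 29 of 31 were tested, 13 were lower in the binding cells and none higher (limma, against 7.12% and 19.6% of all genes), with a median log2 change of -0.86. Their summed level, given above, was lowest in binding replicate 1. KRT10, the keratin of suprabasal epidermis, averaged 553 ± 123 against 1189 ± 194 TPM (SD, n = 3 each), and SPRR3 was listed at 0 throughout. Of 12 tested luminal markers 6 were higher and 1 was lower (limma, against 19.6% and 7.12% of all genes). The 5 not past were GATA3, FOXA1, ELF3, EPCAM and AGR2, and ESR1 was listed at 0 in all libraries. The luminal list had a summed level of 1143 to 1570 against 604 to 663 TPM. Within it KRT7 averaged 555 against 232 TPM, and the transcription factor GATA3 13.2 against 13.3 TPM. Markers used here for the line (VIM, CD44, AXL, CAV1, MSN, EGFR, LAMB3, S100A4 and PLAU) summed to 2609.6 to 2915.5 against 2150.2 to 2178.2 TPM, 6 of 9 higher and none lower. Without non-binding replicate 3 the calls fell to 4 lower epidermal, 2 higher luminal and no line markers. Calls over all genes fell in that fit to 150 higher and 36 lower of 15081 tested. In these bulk samples, fewer cells of a type and less RNA per cell cannot be told apart. Transcripts of the mitochondrial genome took 9.99% to 11.2% of TPM in the binding and 2.98% to 3.38% in the non-binding libraries. With TPM rescaled over nuclear genes, 5 members were called higher (CLDN3, CLDN7, CLDN12, F11R and TJP1). Calls over all genes rose as well, to 4477 higher of 15756 tested, against 3047 of 15574 with TPM as deposited. The part of epidermal or luminal cells and of the mitochondrial share in the results for the members was not tested.

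**Figure D5:**
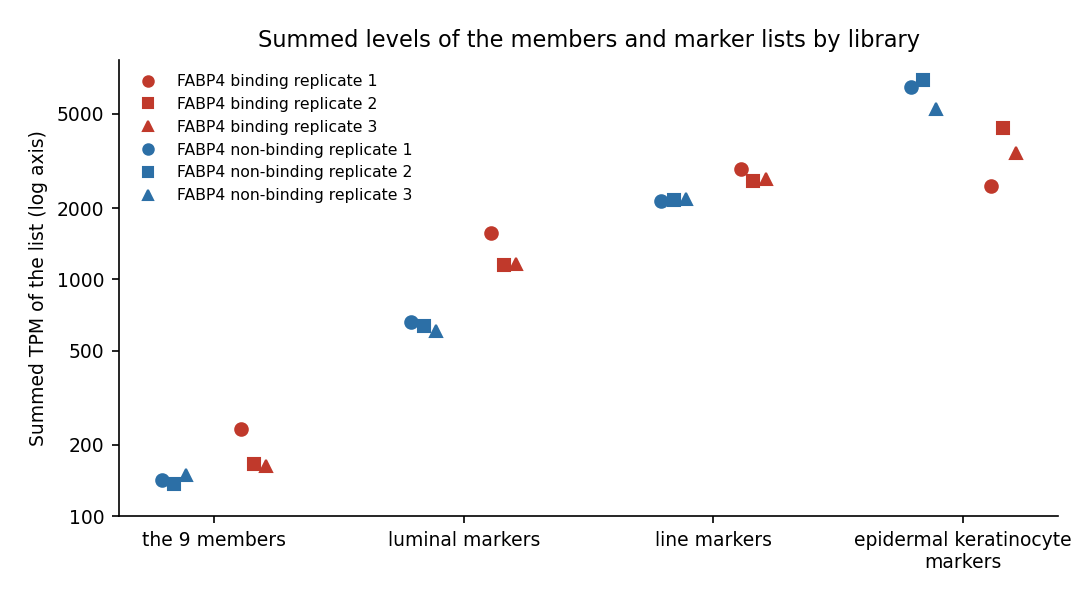
Summed TPM of the 9 members, of the luminal, MDA-MB-231 and epidermal keratinocyte marker lists in each library, on a log axis. Sums of the first 3 lie higher in all binding libraries (red), and the epidermal sum lies lower in them, 2469 to 4368 against 5265 to 6936 TPM.

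Markers of the remaining cell types were mostly low. PPARG, listed as an adipocyte marker, averaged 62.5 TPM in the binding and 57.0 TPM in the non-binding group. TYROBP, a leukocyte marker, reached 18.1 TPM in non-binding replicate 2 and was listed at 0 in non-binding replicates 1 and 3. Of 10 leukocyte markers 4 were tested, of 8 endothelial markers 2 and of 7 adipocyte markers 3, and none of these passed. Leukocyte markers summed to 23.8 to 43.1 TPM in binding and 29.5 to 74.1 TPM in non-binding libraries, endothelial to 17.5 to 24.5 and 13.6 to 21.4, and adipocyte to 54.4 to 74.8 and 56.7 to 61.8. CD3D, MS4A1, NKG7, ADIPOQ and LEP were listed at 0 in all 6 libraries. Of 9 fibroblast markers 6 were tested and 1, PDGFRB, was higher (limma, Benjamini-Hochberg adjusted p = 0.049), with sums of 27.9 to 64.5 and 34.7 to 61.5 TPM. The PDGFRB call was lost under both rescalings to a common scale (adjusted p = 0.159 for the common median and 0.111 for quantile normalization) and without any 1 of the 6 libraries (adjusted p = 0.0702 to 0.11). Of 7 tested kinases and regulators of claudin turnover, none passed.

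By pattern over the 6 libraries, the listed genes most like CLDN3 were PDGFRB, ESAM and CLDN12 among 144 candidates, with root mean square differences of 0.257, 0.27 and 0.276 between their centred log2(TPM + 1) values. Those most like CLDN4 were the virus receptor and junction protein CXADR, the luminal transcription factor GATA3 and the polarity protein LLGL2, with differences of 0.103, 0.128 and 0.139. CXADR averaged 5.17 against 5.03 TPM, GATA3 13.2 against 13.3 and LLGL2 4.99 against 4.92.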

How the data were processed

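RNA from 6 sorted samples was depleted of ribosomal RNA and randomly primed, per the labels' protocols. The deposited values are TPM, since each column sums to 1000000. The submitters' processing notes name hg38. Which aligner, quantifier and annotation made them is not given in the sources used here. Since TPM carry no read totals, counting intervals were not computed. Columns were matched to samples by the names in the labels.

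The 15574 genes reaching 1 TPM in 3 or more libraries were tested on log2(TPM + 1). The test was limma 3.58.1 (R 4.3.3) with its trend option and no covariates, and p-values were Benjamini-Hochberg adjusted with a threshold of 0.05. This scale understates changes of low genes. The members and lists were chosen with earlier results of these data known. Named genes were all members and, per junction list, those past the threshold (at most 6) or else the 2 most abundant, plus the 3 genes most like CLDN3 (largest change) and CLDN4 (most abundant). Others were chosen after their values were seen. PALS1 and LORICRIN were matched by gene identifier. Positions and shared 50-base stretches came from GENCODE release 29, whose annotation may not be the submitters'. Strand use in counting is not stated, so reads of overlapping genes may mix. Alternatives were other pseudocounts, filters, scalings, no intensity trend, a replicate block and each library left out.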

Additional observations from a re-analysis of the deposited data

How the results depend on the processing

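The number of members past the threshold was 2 with TPM as deposited and 0 without a filter, with either scaling (common median or quantile), without the intensity trend and without binding replicate 1 and non-binding replicate 2 together, an alternative chosen after seeing the data. It was 5 with TPM rescaled over nuclear genes, and 3 (CLDN12, F11R and TJP1) of 6 tested with a filter of 5 TPM. Over all genes, 4477 of 15756 tested were higher with that rescaling and 3422 of 10451 with that filter. The number of members past the threshold was 0 to 1 when any 1 library was left out. Other tight junction genes past the threshold numbered 6, but 2 without a filter, 2 with the common median, 1 with quantile normalization, 2 without the intensity trend and 0 to 5 with any 1 library left out. Over all genes the 4156 calls became 1873 without a filter, 2443 with quantile normalization, 2559 without the intensity trend, 3043 without both of those libraries and 186 to 2941 with any 1 library left out, lowest without non-binding replicate 3. Those calls were 73.3% higher as deposited, 33.7% under the common median, 49.0% under quantile normalization and 84.6% with the nuclear rescaling.

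Directions turned only for genes near 0, among the named genes. CLDN1 turned to -0.18 (common median), -0.16 (quantile normalization), -0.23 without binding replicate 1 and -0.20 without it and non-binding replicate 2, and ranged from -0.23 to 0.32 with 1 library left out. CLDN4 turned to 0.10 with rescaling over nuclear genes and to 0.03 to 0.12 without non-binding replicate 3 or binding replicate 3, and ranged from -0.13 to 0.12 over the fits with 1 library left out. CLDN15 turned to 0.072 with that rescaling and to 0.14 and 0.069 without non-binding replicate 1 and binding replicate 2, and over the fits with libraries left out ranged from -0.30 (without both) to 0.14. CXADR turned to -0.29 (common median), -0.26 (quantile normalization), -0.02 (without non-binding replicate 2), -0.06 (without binding replicate 1) and -0.11 (without both), with 0.099 as its highest over the fits with libraries left out. GATA3 turned to 0.074 (rescaling), 0.06 (without non-binding replicate 2) and 0.15 (without binding replicate 3) and ranged from -0.21 to 0.15 with 1 library left out, and LLGL2 to -0.29 (common median), -0.25 (quantile normalization) and -0.084 (without non-binding replicate 1), with 0.11 as its highest over the fits with libraries left out. The cause of these changes was not tested.

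Replicate numbers are shared between the groups but were not found to pair the libraries: deviations of same-numbered libraries from their group means correlated at -0.02 to 0.03 over genes, and not every library correlated best with its own number. With the number as a replicate block 1 member (CLDN12) passed, 5 other tight junction genes passed and 4306 of all genes passed. Depth is unknown for TPM, so no limit from counting can be given for the low members OCLN and TJP3.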
